A study of Homo sapiens with 11 samples.

Results

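The metallothionein family and its regulator MTF1 were followed through expression arrays of lung adenocarcinoma cells that carried TRIM58 or an empty vector. Members were the genes MT1A, MT1B, MT1E, MT1F, MT1G, MT1H, MT1M, MT1X, MT2A and MTF1, taken by symbol through the RefSeq accession of each probe, which makes 10 of the 20249 genes named on the array. MT1X had 2 probes and every other member 1, so the members were read by 11 probes.

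Metallothioneins are small cysteine-rich proteins that bind zinc and copper and, on exposure, cadmium. Their genes lie side by side on chromosome 16, and zinc, cadmium and glucocorticoids raise their RNA. MTF1, encoded on chromosome 1, is the zinc-sensing transcription factor that binds metal response elements in their promoters. The transcripts of the MT1 genes are much alike in sequence, so RNA of 1 gene can bind the probe of another. The probe sequences were not analysed here, and each value below belongs to a probe before it belongs to a gene.

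The study asked what TRIM58, a ubiquitin ligase gene silenced by methylation in lung adenocarcinoma, does when it is restored. A549 and HCC827 are cell lines grown from human lung adenocarcinomas, and both had been infected with a retrovirus that held either FLAG-tagged wild-type TRIM58 coding sequence (TRIM58-WT) or no insert (mock), and all groups had been selected with G418. The study's methods state that clones were isolated after selection, without naming the line, and a legend on cell growth calls the HCC827 transfectants crude. The same legend speaks of A549 mock clones. Whether the HCC827 RNA came from clones or from a mixed population is not stated in the sources used here, nor which A549 transfectants gave the RNA. If the A549 arrays came from clones, differences between clones and an effect of TRIM58-WT cannot be told apart. There were 3 A549 mock replicates on 4 arrays, 3 A549 TRIM58-WT replicates, 2 HCC827 mock replicates and 2 HCC827 TRIM58-WT replicates. A549 mock arrays 1-1 and 1-2 carry the same control cell in the labels and were averaged to 1 replicate. The labels number the cells without saying how each was grown, so p-values measure the spread between these samples. RNA came from whole cultures, so more RNA per cell and a larger share of cells with that RNA cannot be told apart.

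All values are log2 of the processed spot signal minus the 75th percentile (P75) of the array. A probe was tested if, in at least 1 of the groups compared, the scanner software's own test put it well above background on all arrays, and it was called at an adjusted p under 0.05 with at least a 2-fold change (limma, Benjamini-Hochberg over all tested probes). All 5 epithelial markers were above background throughout the A549 mock and both HCC827 groups, against 3 in A549 TRIM58-WT, where KRT19 was above background on no array and EPCAM on 1 array of 3. Of 4 lung lineage markers, NKX2-1 and SFTPB were above background on no A549 array, NAPSA on 1 of 4 mock and 1 of 3 TRIM58-WT arrays and SFTPC on 1 of 4 and 2 of 3, while NKX2-1 and NAPSA were on every HCC827 array. Of 5 fibroblast markers in A549, COL1A1 was above background on 0 of 4 mock and 3 of 3 TRIM58-WT arrays, LUM on 3 of 4 and 0 of 3, and COL1A2, DCN and PDGFRB on none. No endothelial marker of 3 and at most 2 blood cell markers of 4 were so on all arrays of any group. The part of these shifts in the results below was not tested.

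The targeted gene did not check the labels. The TRIM58 probe was well above background only on the array labelled A549 mock 3, at -0.71, and lay between -5.64 and -4.63 on the other 10 arrays. Whether that probe lies inside the coding sequence of the vector was not analysed here. Its signal on mock 3 goes against what the other mock arrays show, so results are given with and without that array. Mock 3 also shared a low P75 signal (60.3) with TRIM58-WT 2 (62.5) and TRIM58-WT 3 (56.6), against 90.5 to 103 on the other A549 arrays. GAPDH, a glycolytic enzyme often used as a loading control, was at 8.96, 8.86 and 8.97 on those arrays and at 8.29 to 8.43 on the other A549 arrays. The part of array brightness in the results was not tested.

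Promoters of MT2A, MT1B, MT1H and MT1X are shown because they carry the metal response elements through which MTF1 acts, and because these genes range from bright probes to a probe at background. RefSeq promoters (GRCh38.p14, 250 bases before to 50 bases after the gene start) were found for 5 members, and MT1A, MT1E, MT1F, MT1G and MT1M had no entry. Capitals mark the 7-base core of the element, searched as TGCACNC and TGCGCNC on both strands, and no printed match overlaps another. The windows are chr16:56608334-56608633 for MT2A, chr16:56651636-56651935 for MT1B, chr16:56669564-56669863 for MT1H and chr16:56682220-56682519 for MT1X, all on the plus strand and given 5′ to 3′.
MT2A: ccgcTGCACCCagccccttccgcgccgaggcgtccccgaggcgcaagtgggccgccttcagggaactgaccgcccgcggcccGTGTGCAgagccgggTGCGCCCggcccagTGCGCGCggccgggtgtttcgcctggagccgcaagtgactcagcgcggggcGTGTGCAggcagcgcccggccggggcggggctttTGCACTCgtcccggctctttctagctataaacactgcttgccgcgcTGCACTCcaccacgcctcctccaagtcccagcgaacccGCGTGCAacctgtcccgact
MT1B: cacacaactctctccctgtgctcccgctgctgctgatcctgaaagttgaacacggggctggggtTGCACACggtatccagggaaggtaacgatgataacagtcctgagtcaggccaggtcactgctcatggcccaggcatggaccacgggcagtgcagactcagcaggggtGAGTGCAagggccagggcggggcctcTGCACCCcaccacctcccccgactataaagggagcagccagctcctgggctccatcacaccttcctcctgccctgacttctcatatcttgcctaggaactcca
MT1H: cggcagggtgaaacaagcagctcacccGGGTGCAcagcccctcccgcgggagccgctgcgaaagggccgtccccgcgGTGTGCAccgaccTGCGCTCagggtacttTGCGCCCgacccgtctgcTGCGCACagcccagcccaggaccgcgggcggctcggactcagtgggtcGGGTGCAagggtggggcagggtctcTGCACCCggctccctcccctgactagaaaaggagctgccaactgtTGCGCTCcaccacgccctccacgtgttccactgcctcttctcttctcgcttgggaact
MT1X: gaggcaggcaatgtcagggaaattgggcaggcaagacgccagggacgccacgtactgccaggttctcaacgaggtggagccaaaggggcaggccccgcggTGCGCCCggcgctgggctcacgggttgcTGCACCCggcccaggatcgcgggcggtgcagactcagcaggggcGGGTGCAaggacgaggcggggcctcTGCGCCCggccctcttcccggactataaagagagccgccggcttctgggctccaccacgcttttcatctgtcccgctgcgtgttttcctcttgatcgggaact

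MT2A and MT1H each held 8 matches, MT1X 4 and MT1B 3, whereas the window of MTF1 itself (chr1:37859543-37859842, minus strand) held 0. Among all 35116 RefSeq promoters of that length, 29.6% held at least 1 match, 2.30% at least 3, 0.601% at least 4 and 0.0199% at least 8. Counted from the gene start, a match began at -53 in MT1B, MT1H and MT1X and at -54 in MT2A, and another began at -78 in MT1H and MT1X and at -79 in MT1B. Aligned with gaps allowed, the MT1B and MT1H windows held identical bases at 59.7% of 300, and MT1B and MT1X at 59.0%. The longest shared run was 18 bases in the latter pair. MT2A and MT1B were identical at 52.7%. The MTF1 window, aligned in the same way, was identical to the metallothionein windows at 42.3% to 48.0%, with longest shared runs of 8 to 11 bases. A match describes letters and not a bound site, and MT1H, with as many matches as MT2A, had a probe at background on every array.

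In A549, MT1A, MT1B and MT1X rose with TRIM58-WT, by 3.54-fold, 3.66-fold and, on probe A_33_P3350056, 3.16-fold. Of the 11 member probes, 8 were tested and 3 were called, all 3 higher in TRIM58-WT, beside 3.49% of the 16920 tested probes called higher and 6.92% called in either direction. The median log2 change of the 7 tested metallothionein probes was 1.66, against 0.06 over all tested probes. Every TRIM58-WT replicate lay above every mock replicate on the probes of MT1A, MT1B, MT1E and both MT1X probes, which held for 15.9% of all tested probes. MT1E, MT1F, MT2A, the second MT1X probe and MTF1 did not pass the test, and MT1G, MT1H and MT1M were not tested.

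**Figure D1:**
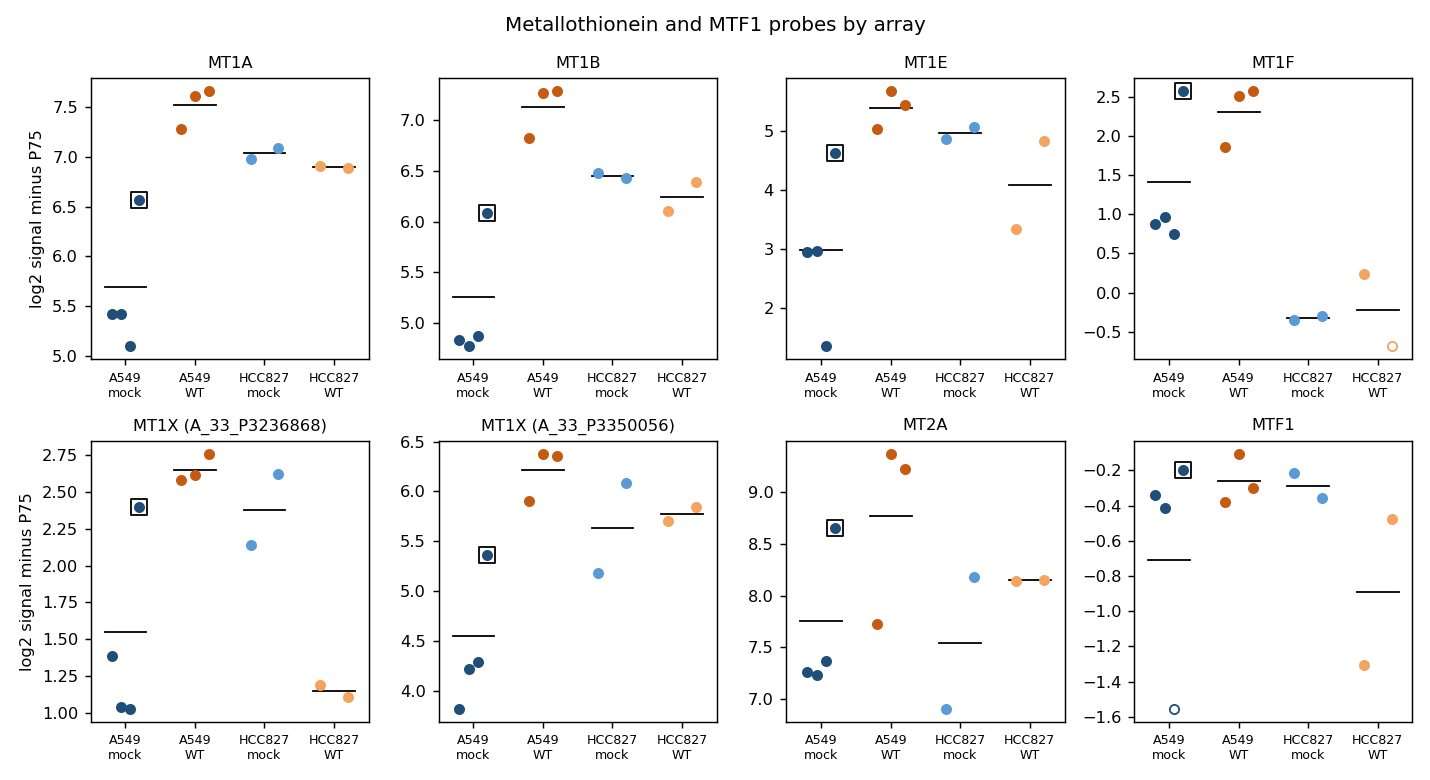
Each panel is 1 probe, with log2 signal minus P75 on the vertical axis (its range differs between panels) and the 4 groups on the horizontal axis (WT stands for TRIM58-WT). Points are arrays, open points were not well above background, lines are means over replicates, and the square marks A549 mock 3. MT1A, MT1B, MT1E and both MT1X probes have every A549 TRIM58-WT array above every A549 mock array, with mock 3 the highest mock array.

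MT1A, a classical zinc and cadmium binding isoform, had signals of 5.41 and 5.42 on mock arrays 1-1 and 1-2, 5.09 in mock 2 and 6.56 in mock 3 of A549. Its TRIM58-WT values were 7.28, 7.61 and 7.66. All 3 TRIM58-WT arrays were thus above all mock arrays, and mock 3 lay between the other mock arrays and TRIM58-WT. The log2 change was 1.83 ± 0.39 (SE, adjusted p = 0.0385, limma).

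MT1B, another MT1 isoform, had signals of 4.83 and 4.77 on mock arrays 1-1 and 1-2, 4.87 in mock 2 and 6.09 in mock 3. In TRIM58-WT it was at 6.82, 7.27 and 7.28. The groups did not overlap and mock 3 was again intermediate. Its log2 change was 1.87 ± 0.38 (SE, adjusted p = 0.0330, limma).

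MT1X, an MT1 isoform found in many tissues, was read by A_33_P3350056 at 3.82 and 4.21 on mock arrays 1-1 and 1-2, 4.29 in mock 2 and 5.36 in mock 3. That probe gave 5.91, 6.38 and 6.36 in TRIM58-WT, a log2 change of 1.66 ± 0.37 (SE, adjusted p = 0.0442, limma). The other MT1X probe, A_33_P3236868, also had mock 3 above the other mock arrays and below every TRIM58-WT array, and did not pass the test. Its values were 1.39, 1.04, 1.02 and 2.40 in mock 1-1, 1-2, 2 and 3 and 2.58, 2.62 and 2.76 in TRIM58-WT, with a log2 change of 1.11 ± 0.37 (SE, adjusted p = 0.123, limma).

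MT1E, an MT1 isoform of the same cluster, showed the largest difference among the tested member probes and the widest spread. It was at 2.95 and 2.97 on mock arrays 1-1 and 1-2, 1.35 in mock 2 and 4.63 in mock 3, against 5.04, 5.68 and 5.45 in TRIM58-WT. The groups did not overlap, but the log2 change of 2.41 ± 0.77 did not pass the test (SE, adjusted p = 0.112, limma). Mock 2 lay 1.60 below the next lowest A549 array at MT1E, and its 2 spots on that array differed by 1.53. Without mock 2 the log2 change was 1.60 (adjusted p = 0.208, limma), and without mock 3 it was 3.23 (adjusted p = 0.0152, limma).

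MT2A, the most widely expressed isoform, and MT1F differed between groups by less than the test could call. MT2A was at 7.27, 7.23, 7.37 and 8.65 in mock 1-1, 1-2, 2 and 3 and at 7.72, 9.37 and 9.22 in TRIM58-WT, so TRIM58-WT 1 fell below mock 3 and the groups overlapped. MT1F was at 0.87, 0.96, 0.74 and 2.57 in the mock arrays and at 1.85, 2.51 and 2.57 in TRIM58-WT, with mock 3 as high as the highest TRIM58-WT arrays. The log2 changes were 1.02 ± 0.56 for MT2A (SE, adjusted p = 0.327, limma) and 0.90 ± 0.51 for MT1F (SE, adjusted p = 0.341, limma).

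MTF1, the zinc sensor, did not pass the test. Its probe was dim, at -0.34, -0.41, -1.56 and -0.20 in mock 1-1, 1-2, 2 and 3, of which mock 2 was not well above background, and at -0.38, -0.11 and -0.30 in TRIM58-WT. Apart from mock 2, which lay 1.14 below every other A549 array, the groups overlapped. The log2 change was 0.45 ± 0.37 (SE, adjusted p = 0.510, limma) and 0.02 without mock 2 (adjusted p = 0.982, limma).

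MT1G, MT1H and MT1M, 3 further MT1 isoforms, were not well above background on any of the 11 arrays. Their values ran from -5.43 to -2.72, so no level or change can be given for them.

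Single replicates decided which members were called in A549. Leaving out mock 3 raised the count from 3 to 6 of 8 tested member probes, all higher, beside 6.33% of all tested probes called higher. These were MT1A, MT1B, MT1E, MT1F and both MT1X probes, with log2 changes between 1.48 for MT1F and 3.23 for MT1E. Leaving out mock 1, mock 2, TRIM58-WT 2 or TRIM58-WT 3 left no member called. Calls over all 16920 tested probes also fell, from 1171 to between 301 and 369. Without TRIM58-WT 1 only MT1B was called, beside 1462 of all tested probes. The log2 change stayed above 0 for all 8 probes under each of these 6 omissions, from 1.53 to 2.26 for MT1A, 1.65 to 2.29 for MT1B, 1.39 to 2.06 for A_33_P3350056 and 0.02 to 0.70 for MTF1.

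**Figure D2:**
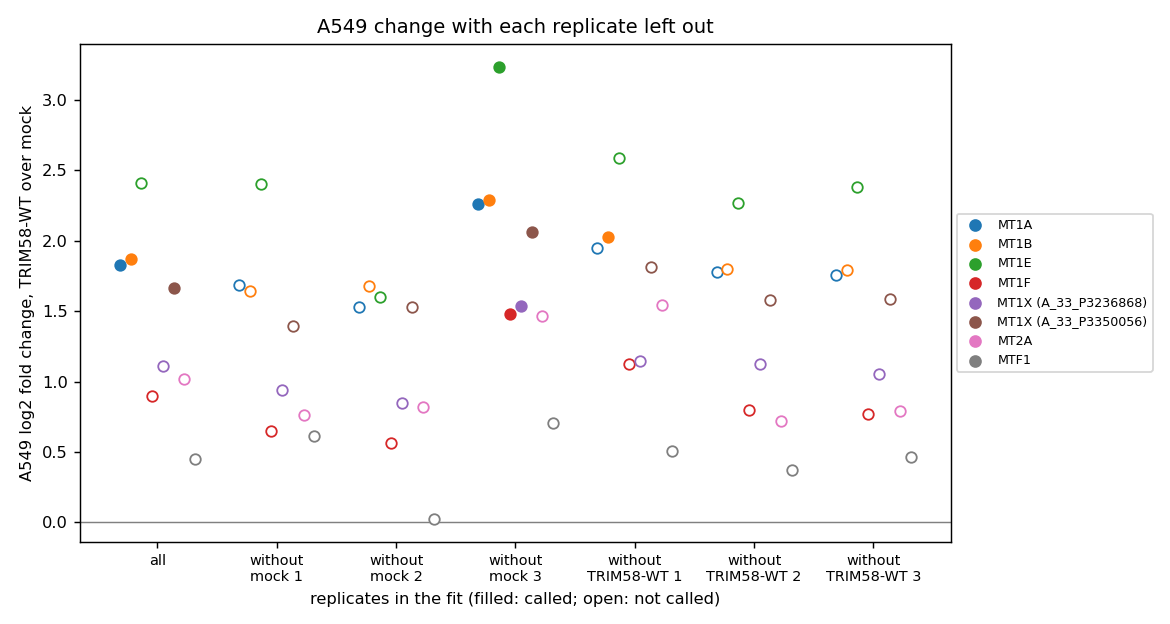
Log2 fold change of the 8 tested member probes in A549 (vertical axis) with all replicates and with each replicate left out (horizontal axis). Filled points were called and open points were not; 6 probes are filled without mock 3, 1 without TRIM58-WT 1 and none under the other omissions.

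The direction held on both slides. Slide 1 held mock 1-1, mock 2 and a single TRIM58-WT array, TRIM58-WT 1, so its values are given with no test, and the log2 changes were 2.03 for MT1A, 1.97 for MT1B and 1.86 for A_33_P3350056. Slide 2 held mock 1-2, mock 3, TRIM58-WT 2 and TRIM58-WT 3, and gave 1.64 for MT1A, 1.85 for MT1B and 1.58 for A_33_P3350056, with no member called. Shifting each array by its median in place of P75 lowered the median change of all tested probes from 0.06 to -0.31 and the share of called probes that were higher from 50.5% to 25.6%. On that scale MT1A changed by 1.46 (adjusted p = 0.0733), MT1B by 1.50 (adjusted p = 0.0646) and A_33_P3350056 by 1.29 (adjusted p = 0.120), and no member was called (limma).

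In HCC827 no member was called. Of the 19542 tested probes 0.885% were called, and of the 8 tested member probes 3 lay above 0 and 5 below, with a median log2 change of -0.14 for the 7 metallothionein probes. At an unadjusted p under 0.05 there was 1 member probe, the MT1X probe A_33_P3236868, beside 3970 of all 19542 tested probes. The methods' t-test called 0 members after adjustment, and 0 of all tested probes. MT1A was at 6.98 and 7.09 in mock and at 6.90 and 6.89 in TRIM58-WT. MT1B was at 6.48 and 6.43 in mock and at 6.10 and 6.39 in TRIM58-WT. On both probes the pairs lay close together, with log2 changes of -0.14 ± 0.13 (SE, adjusted p = 0.561, limma) and -0.21 ± 0.16 (SE, adjusted p = 0.488, limma).

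The MT1X probes disagreed in HCC827. A_33_P3236868 was at 2.14 and 2.62 in mock and at 1.19 and 1.10 in TRIM58-WT, a log2 change of -1.23 ± 0.21 (SE, adjusted p = 0.0884, limma). A_33_P3350056 was at 5.18 and 6.09 in mock and at 5.70 and 5.84 in TRIM58-WT, a log2 change of 0.14 ± 0.33 (SE, adjusted p = 0.831, limma). The first pair of groups did not overlap and the second did, and which RNA each probe reads was not tested.

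MT1E in HCC827 was at 4.87 and 5.06 in mock and at 3.34 and 4.83 in TRIM58-WT, with a log2 change of -0.88 ± 0.52 (SE, adjusted p = 0.400, limma). TRIM58-WT 1 alone was low, by 1.49 below the next array. Without it the change was -0.13, whereas without TRIM58-WT 2 it was -1.62. Each of these values rests on a lone TRIM58-WT array, so no test is given. TRIM58-WT 1 was also low at MTF1, which was at -0.22 and -0.36 in mock and at -1.31 and -0.48 in TRIM58-WT. The MTF1 log2 change of -0.61 ± 0.31 (SE, adjusted p = 0.348, limma) became -0.19 without TRIM58-WT 1.

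Low values at MT1E recurred on A549 mock 2 and HCC827 TRIM58-WT 1. Of 14289 probes compared, 309 lay more than 1 (log2) below every other A549 array on mock 2, 422 lay as far below every other HCC827 array on TRIM58-WT 1, and 177 did both. MT1E was among these 177, as was MT1L, a further metallothionein entry whose RefSeq transcript is non-coding. MT1A, MT1B, both MT1X probes and MT2A were not. What the 177 probes share was not tested.

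MT2A in HCC827 was at 6.91 and 8.18 in mock and at 8.15 and 8.15 in TRIM58-WT, so its spread lay in the mock pair. MT1F was at -0.35 and -0.29 in mock and at 0.24 and -0.68 in TRIM58-WT, of which the last was not well above background and came from 2 spots that differed by 5.24. The log2 changes were 0.60 ± 0.45 for MT2A (SE, adjusted p = 0.478, limma) and 0.10 ± 0.34 for MT1F (SE, adjusted p = 0.883, limma).

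**Figure D3:**
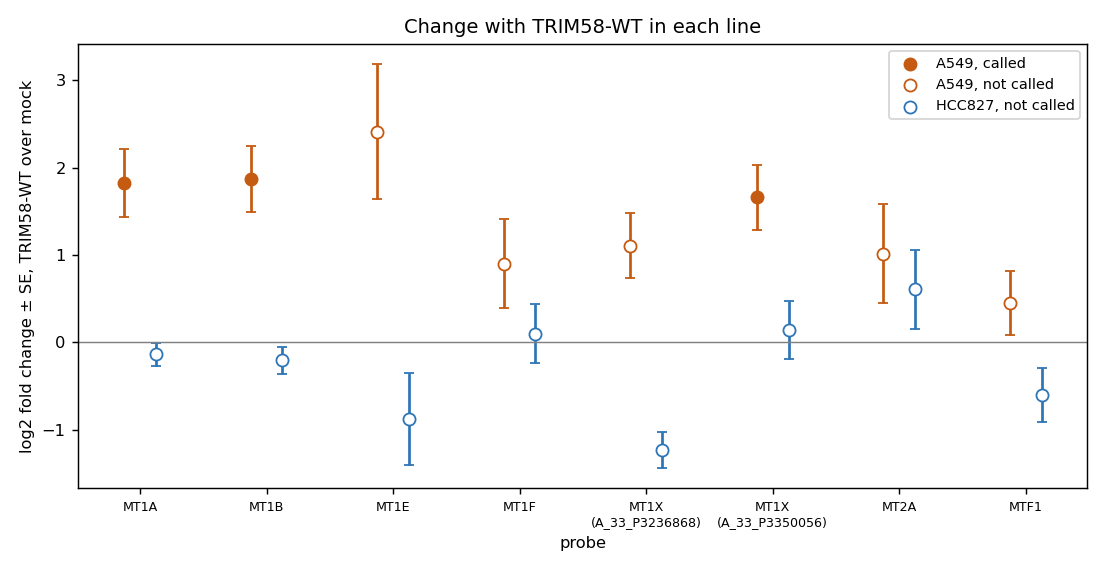
Log2 fold change of TRIM58-WT over mock for the 8 tested member probes, in A549 (orange) and HCC827 (blue), with standard errors from limma. Filled points were called. MT1A, MT1B and the MT1X probe A_33_P3350056 are filled in A549, none is filled in HCC827, and the intervals of both lines overlap at MT1F and MT2A.

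The change in A549 minus that in HCC827 was tested for each probe in 1 fit of all 4 groups and called at an adjusted p under 0.05. No member passed, beside 3.85% of 20617 tested probes called. The difference was above 0 for all 8 member probes, as for 53.6% of all tested probes. An unadjusted p under 0.05 was found for 5 member probes, beside 3795 of all 20617. The difference was 2.34 ± 0.53 for A_33_P3236868 (SE, adjusted p = 0.0527, limma), 2.08 ± 0.53 for MT1B (SE, adjusted p = 0.0739, limma) and 1.96 ± 0.54 for MT1A (SE, adjusted p = 0.0919, limma). MT1E had 3.29 ± 1.17 (SE, adjusted p = 0.179, limma), and 1.73 without both arrays low at that probe. MT2A had the smallest difference, at 0.41 ± 0.88 (SE, adjusted p = 0.847, limma). Without A549 mock 3, MT1A, MT1B, MT1E and both MT1X probes were called, beside 10.1% of all tested probes. On MT1A, MT1B, MT1E and A_33_P3236868 every TRIM58-WT replicate lay above every mock replicate in A549 and below every mock replicate in HCC827, which held for 3.31% of the 15822 probes tested in both lines. The lines thus differed in which members were called, but with all replicates the difference itself was not called for any member.

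Between the arrays labelled A549 mock and HCC827 mock, 3 of 8 tested member probes were called. Over all 19499 tested probes 30.1% were called, so a count of this size is common between these lines and is no result about the family. MT1A was 2.54-fold lower in A549 (log2 difference -1.34 ± 0.38, SE, adjusted p = 0.0211, limma) and MT1B 2.30-fold lower (-1.20 ± 0.37, SE, adjusted p = 0.0307, limma), whereas MT1F was 3.32-fold higher (1.73 ± 0.54, SE, adjusted p = 0.0316, limma). The MT1F call ended with normexp, no filter, the authors' log2 table and slide as a block, with log2 differences between 1.10 and 1.73 (adjusted p from 0.0556 to 0.105, limma). Without A549 mock 3, 6 probes were called, beside 30.2% of all tested probes: MT1A, MT1B, MT1E and both MT1X probes lower and MT1F higher in A549. Leaving out A549 mock 1 or mock 2 left only MT1F, beside 5655 and 5625 of all tested probes. Leaving out an HCC827 mock replicate left a lone array in that group, so no count is given. On slide 1, where mock arrays of both lines lay together, MT1A differed by -1.78, MT1B by -1.60 and MT1F by 1.13, and the same 6 probes were called, beside 32.4% of all tested probes.

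By group mean, the order of MT1A ran from A549 TRIM58-WT (7.52 ± 0.21, SD, n = 3) through HCC827 mock (7.04 ± 0.07, SD, n = 2) and HCC827 TRIM58-WT (6.90 ± 0.01, SD, n = 2) to A549 mock (5.69 ± 0.77, SD, n = 3). MT1B and MT1E followed the same order, and in each the HCC827 groups were neighbours that did not pass the test of their difference. MT1F stood in another order, with A549 TRIM58-WT (2.31 ± 0.40, SD, n = 3) and A549 mock (1.41 ± 1.01, SD, n = 3) above HCC827 TRIM58-WT (-0.22 ± 0.65, SD, n = 2) and HCC827 mock (-0.32 ± 0.04, SD, n = 2). For MT2A the group means ran from 8.77 ± 0.91 in A549 TRIM58-WT (SD, n = 3) to 7.54 ± 0.90 in HCC827 mock (SD, n = 2), and no tested pair of groups passed the test.

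The MT1A, MT1B and MT1E probes and A_33_P3350056 moved together over the 10 replicates. So did the probe of MT1HL1, a further metallothionein gene, with MT1A, MT1B and A_33_P3350056. MT2A, MT1F and MT3 did so less. MT1A and MT1B had a Pearson r of 0.98, MT1A and A_33_P3350056 of 0.95, and both MT1X probes of 0.66, with 0.96 over the 6 A549 replicates alone. MT2A had r between 0.52 and 0.74 to the MT1A, MT1B, MT1E and MT1X probes, and MT1F between 0.23 and 0.55, with 0.87 to 0.94 over the A549 replicates alone. Of the other metallothionein probes, MT1HL1 had 0.98 to MT1A and MT3 had 0.48 to MT1A. MT1L had 0.93 to MT1E and 0.48 to MT2A. These correlations describe points that share groups, arrays and possibly cross-binding RNA, and carry no test. Of 9571 non-member genes compared, those most like the mean of the 6 MT1 and MT2A probes above background on every array were WDCP (r = 0.99), TP53BP1 (0.97), QSOX1 (0.97), ZNF260 (0.96) and BEND6 (0.96), over the same 10 replicates.

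Of 12 other metallothionein genes listed, 6 had a probe and 3 were tested in A549, with changes above 0 in all 3. MT1HL1, a gene like MT1H, was called higher with a log2 change of 1.77 ± 0.36 (SE, adjusted p = 0.0354, limma). MT1L, with a non-coding transcript, had a log2 change of 2.28 ± 0.80 (SE, adjusted p = 0.139, limma) and was low on mock 2, as MT1E was. MT3, the isoform best known from brain, was tested and had a change of 0.43 ± 0.29 (SE, adjusted p = 0.419, limma).

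The genes around the cluster changed in both directions. Of the 20 nearest tested genes, 10 on each side in RefSeq order, 10 had a log2 change above 0 in A549 and the median was 0.03. Of these 20 genes 3 were called, beside 6.92% of all tested probes. IRX3, a homeobox factor, and LPCAT2, a phospholipid acyltransferase, were called higher with changes of 1.75 and 1.39, and DOK4, a docking protein, was called lower with -3.62 (limma). CAPNS2, next to LPCAT2 among the tested genes, had a change of 1.40 and was not called (adjusted p = 0.176, limma). The direct neighbours of the cluster, BBS2 and NUP93, had changes of -0.52 and 0.11 and were not called.

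**Figure D4:**
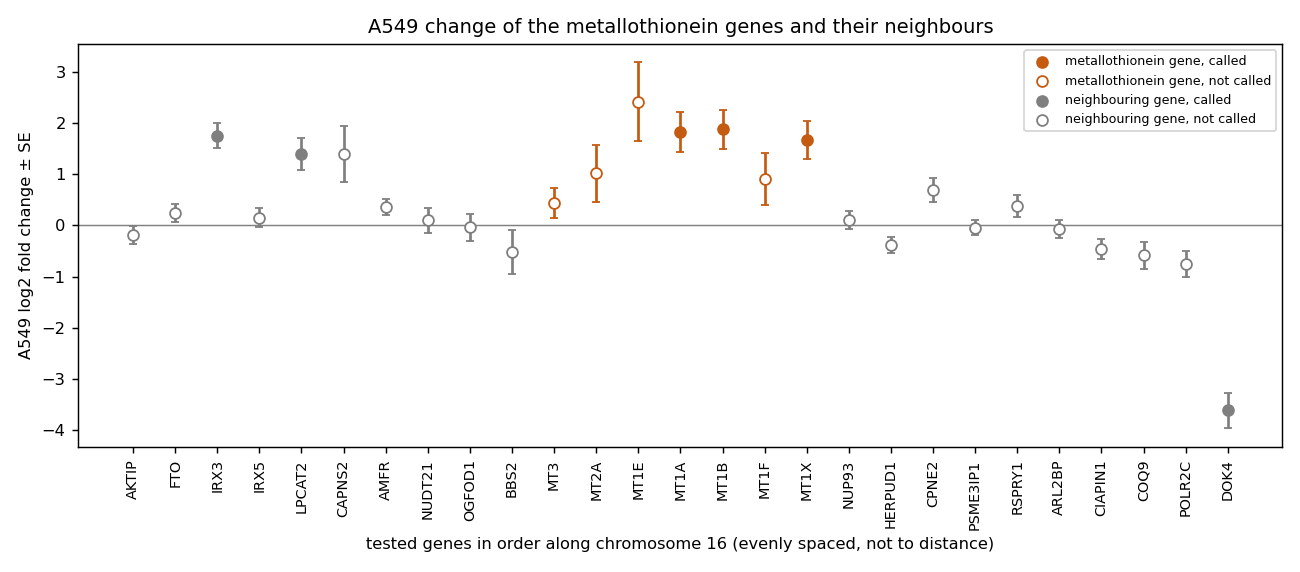
A549 log2 fold change with its standard error (vertical axis) for tested genes in order along chromosome 16 (horizontal axis, evenly spaced). The 7 metallothionein genes in orange run from 0.43 at MT3 to 2.41 at MT1E, and the 20 neighbours in grey have a median of 0.03; filled points were called.

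Genes that handle the same metals or answer to the same signals were listed to set the members beside their pathway. Together 3 of 41 tested genes of these lists were called in A549 (7.32%), close to the 6.92% over all tested probes. Zinc exporters, which move zinc out of the cytosol, had 0 of 5 tested genes called in A549. SLC30A1, a classic MTF1 target, was at -0.92 ± 0.20 (SE, adjusted p = 0.0409, limma) and SLC30A5 at -0.79 ± 0.17 (SE, adjusted p = 0.0385, limma), both short of 2-fold. SLC30A3 was at 1.05 ± 0.28 (SE, adjusted p = 0.0738, limma), SLC30A7 at -0.34 and SLC30A9 at -0.32. The activity of MTF1 was not tested. Among the 11 tested zinc importers 1 was called, SLC39A8, which was lower by a log2 change of -1.71 ± 0.33 (SE, adjusted p = 0.0296, limma). Copper handling genes had 0 of 9 called. Of 9 heavy metal and heat stress genes, HMOX1, the haem-degrading enzyme, was called lower at -1.21 ± 0.26 (SE, adjusted p = 0.0402, limma). Of 7 glucocorticoid response genes, SGK1, a kinase induced by these hormones, was called lower at -2.10 ± 0.37 (SE, adjusted p = 0.0238, limma). In HCC827 none of these lists had a called gene.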

How the data were processed

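RNA of 11 samples of A549 and HCC827 transfectants was hybridised in 1 colour to Agilent human expression arrays. The authors deposited the spot intensity of each array as extracted by Agilent Feature Extraction (11.5.1.1 in the file headers, 10.7 in the submitters' processing notes), which subtracted the background and applied no scaling between arrays. A second table that the authors deposited gives log2 values for these arrays and was used as an alternative.

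Outlier spots were left out, spots of a probe were averaged, and log2 values were set relative to the array's 75th percentile. Of 42405 probes, 27241 were named through RefSeq (GRCh38.p14), and 28 probe values were missing. Groups came from the labels, and the P75 signals are given in the report. Groups were compared with limma 3.58.1 (R 4.3.3, lmFit and eBayes), each line alone, and with 1 fit of all 4 groups for the difference between lines and between mock groups. The paper names an adjusted p under 0.05 and 2-fold for the arrays. Its statistics section names tests between 2 groups in general, of which the t-test was run as an alternative. Left-out replicates kept the set of tested probes, and a lone array was assumed to vary like the others. The fits were tested on simulated data. Promoters were aligned with Biopython 1.88, with 1 for a match, 0 for a mismatch, -2 to open a gap and -0.5 to extend it. Figures were drawn with matplotlib 3.10.9 in Python 3.11.15.

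Members and lists were chosen with earlier results of these data known. Genes named are the members, the called genes of the lists, TRIM58, GAPDH, the 10 nearest tested genes on either side of the cluster and the 5 genes most like the members. The zinc exporters, BBS2, NUP93, CAPNS2, MT3, MT1L and markers that were not called were named after their values were seen or for their position. Alternatives covered normalization, background correction, filters, the mock 1 arrays, slide, the replicate block, the methods' t-test and each replicate left out. The number of arrays limits the precision.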

Additional observations from a re-analysis of the deposited data

Results flagged for a closer look

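On 4 member probes every replicate of TRIM58-WT lay above every mock replicate in A549 and below every mock replicate in HCC827, as did 3.31% of the probes tested in both lines. The A549 change minus the HCC827 change was 1.96 (log2) for MT1A, 2.08 for MT1B, 3.29 for MT1E and 2.34 for the MT1X probe A_33_P3236868. The HCC827 change alone was -0.14 for MT1A, -0.21 for MT1B, -0.88 for MT1E and -1.23 for A_33_P3236868, and none was called. MT1E was at -0.13 without TRIM58-WT 1, and the other MT1X probe was at 0.14. The test of the difference itself did not pass for any of the 4 probes (limma, adjusted p = 0.0919, 0.0739, 0.179 and 0.0527), so the opposite order is a description of these replicates.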

How the results depend on the processing

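With 2 or 3 replicates a group, calls of single members were fragile while most directions held: of the alternative values for single member probes, 458 kept their direction and their side of the threshold, 37 gained a call, 42 lost one and 10 changed sign. In A549 (3 members called) the count was 0 with a median shift, no filter or the methods' t-test. Those settings called 1112 of 16920, 609 of 42402 and 24 of 16920 tested probes. The count was 5 with 4 separate mock arrays, beside 1729 of all tested probes. With slide as a block, also fitted on 4 separate mock arrays, it was 4, beside 1801. MT1E was called both without the slide term and with it (adjusted p = 0.0459 and 0.0297, limma). No count is given within slide 1, which held a lone TRIM58-WT array. Within slide 2 the count was 0, beside 681, and with a replicate left out it was 0 to 6, beside 301 to 1956. In HCC827 (0 called) the count was 1 with a median shift, beside 650 of 19542 tested probes. It was also 1 with probes above background on every array, beside 367 of 17388. Both calls were A_33_P3236868, lower. No count is given in HCC827 with a replicate left out, which leaves a lone array in a group. The difference between lines (0 called, beside 794 of 20617) had 3 with quantile normalization, beside 877, and 3 with normexp, beside 1047. It had 3 with 4 separate mock arrays, beside 1352, and 0 to 5 with an A549 replicate left out, beside 347 to 2084. A549 mock against HCC827 mock (3 called, beside 5871 of 19499) had 1 with no filter, beside 6318 of 42398. It had 4 with quantile normalization, beside 5764, 2 with a median shift, beside 5449, and 2 with the authors' table, beside 5865. With 4 separate mock arrays it had 4, beside 6054, and with slide as a block on those arrays 5, beside 6195. Within slide 1 it had 6, beside 6322, and with an A549 mock replicate left out 1 to 6, beside 5625 to 5896.

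The sign changes were all in values that did not pass the test. In HCC827, MT1F became -0.73 in the authors' log2 table, and with a replicate left out the change ran from -0.36 to 0.56 for MT1F, from -0.32 to 0.59 for A_33_P3350056 and from -0.034 to 1.24 for MT2A. The MT2A difference between lines became -0.21 with normexp and ran from -0.23 to 1.05 with a replicate left out. MT2A between the mock groups became -0.42 with slide as a block and -0.22 within slide 1, and ran from -0.42 to 0.85 with a replicate left out. The cause was not tested.

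Same-numbered A549 replicates correlated at 0.503, -0.422 and 0.503 in their deviations from group means, against -0.59 to 0.57 for the other pairs. Deviations within a group of 3 depend on each other, so this check cannot show whether the numbers pair the samples. With the replicate block, 3 members were called in A549, 0 in HCC827 and 0 for the difference, and the count of all called probes moved from 1171 to 1122, from 173 to 0 and from 794 to 322. The fit without both arrays low at MT1E was chosen after seeing the data. It held a lone HCC827 TRIM58-WT array, so no count is given.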
